A study of Mus musculus with 2 samples.

Results

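The cells described here were the PCs of a passage 5 culture with the highest share of RNA from 5 genes, *Postn*, *Thbs1*, *Col6a3*, *Adamts15* and *Nrep*. Each kept cell was scored by the summed UMIs of these genes over all its UMIs, where a UMI is a barcode that lets each captured RNA molecule be counted once, and the 10% of cells with the highest score were taken. This gave 995 high-score cells out of 9950 kept cells of the passage 5 library (PC5) and 14699 kept cells in the whole series, and the other 8955 PC5 cells served as the contrast. Cells were kept if over 1000 genes were detected and less than 20% of their UMIs were mitochondrial.

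The study cultured primary brain PCs of wild type C57BL/6N mice and sequenced them in droplets with 3' tags, with 1 library at passage 5 and 1 at passage 20 (PC20). Each isolation pooled the brains of 6 female mice aged 6 to 8 weeks, was grown on plates coated with collagen I, first in endothelial cell growth medium and after the early passages in pericyte medium. No sort for a surface marker before culture is given for these cultures. The methods describe removal of myelin, washes of the plated cells and serial passaging, with PC identity checked by PDGFRβ expression. By the methods the passages came from separate isolations, although the deposited design speaks of 6 mice in all, so passage and isolation cannot be told apart. The PC5 file held 223978480 UMIs in 10629 barcodes, of which the kept cells held 223054273, and the PC20 file held 191306354 UMIs in 4884 barcodes, of which 4749 were kept.

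PCs wrap around the endothelial tubes of small vessels and share a basement membrane with them. Mesenchymal cells lay down collagens and fibrillins as fibres, and coat them with matricellular proteins, which act less as scaffold than as signals to integrins and growth factors. Periostin, the product of *Postn*, and thrombospondin 1, the product of *Thbs1*, are matricellular proteins known for their rise in wound repair and fibrosis, and thrombospondin 1 can release TGF-beta from its latent form.

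The promoters of 4 matrix genes with high levels in the high-score cells are shown so that a reader can see the DNA in front of *Postn* and *Col6a3*, genes of the score, and of *Mmp3* and *Tnc*, genes outside it. Each run is the 250 bases before a RefSeq start site on GRCm38.p6, read 5' to 3' on the gene's strand, at chr3:54360857-54361106 (plus strand) for *Postn*, chr1:90843972-90844221 (minus) for *Col6a3*, chr9:7445572-7445821 (plus) for *Mmp3* and chr4:64047016-64047265 (minus) for *Tnc*. None of the 4 windows overlapped an exon of a listed gene. *Postn* and *Tnc* have a second RefSeq start site each, whose windows are not shown. Capitals mark matches to the letters searched.
Postn: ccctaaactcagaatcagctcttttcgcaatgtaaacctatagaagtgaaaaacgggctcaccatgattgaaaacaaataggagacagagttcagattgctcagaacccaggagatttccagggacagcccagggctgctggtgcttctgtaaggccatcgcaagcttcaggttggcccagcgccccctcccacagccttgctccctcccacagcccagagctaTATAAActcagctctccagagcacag
Col6a3: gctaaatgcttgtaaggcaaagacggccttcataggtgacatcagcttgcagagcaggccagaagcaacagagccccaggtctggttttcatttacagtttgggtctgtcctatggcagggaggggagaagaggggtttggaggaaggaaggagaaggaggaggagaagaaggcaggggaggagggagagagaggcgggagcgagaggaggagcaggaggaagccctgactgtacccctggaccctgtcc
Mmp3: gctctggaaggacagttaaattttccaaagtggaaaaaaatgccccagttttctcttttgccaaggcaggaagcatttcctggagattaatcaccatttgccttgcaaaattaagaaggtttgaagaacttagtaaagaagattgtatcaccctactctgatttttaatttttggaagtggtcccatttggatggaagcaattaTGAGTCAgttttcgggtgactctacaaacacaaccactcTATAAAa
Tnc: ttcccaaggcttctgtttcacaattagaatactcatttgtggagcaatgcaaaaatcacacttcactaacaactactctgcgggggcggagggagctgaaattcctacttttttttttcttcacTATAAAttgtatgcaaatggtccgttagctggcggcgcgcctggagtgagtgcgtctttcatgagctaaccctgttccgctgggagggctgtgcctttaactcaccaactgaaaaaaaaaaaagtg

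The letters searched on both strands were GGAATG (bound by TEAD factors), TGANTCA (AP-1), GTCTAGAC and CAGACA (both SMAD) and TATAAA (the TATA box), and in the windows shown no match overlapped another. *Postn* had TATAAA starting at base -26 from the start site, *Tnc* had it at -126, and *Mmp3* had TGANTCA at -46 and TATAAA at -7, while the *Col6a3* window held no match. Of the 5 score genes and the 15 genes outside the score with the largest ratios among those with at least 20 CPM, 12 had an entry in the promoter table. Of these 12, 4 held TATAAA (*Postn*, *Mmp3*, *Tnc* and *Il33*), against 14.3% of the 27025 genes in the table. CAGACA was held by 4 of 12 against 19.3%, TGANTCA by 1 (*Mmp3*) against 7.82%, GGAATG by 1 (*Il33*) against 14.4%, and GTCTAGAC by 0 against 0.2%. Among the 12 genes with an entry of the 15 with the smallest ratios, CAGACA was held by 3, TGANTCA by 2, GGAATG by 3, GTCTAGAC by 0 and TATAAA by 1. A match describes letters in this window and does not show binding.

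The limit of the score was set by the 10% rule. The lowest high-score cell had 7.56 score UMIs per 10000 UMIs and the highest other cell 7.56 as well, and the fifth cell on either side of the limit had 7.58 and 7.55. The median was 11.7 per 10000 in the high-score cells, with a highest value of 173.5, and 1.13 in the other cells, while 2021 cells (20.3%) had a score of 0. High-score cells held between 2 and 336 score UMIs, with a median of 24, and together 45.8% of all score UMIs in the kept cells.

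The high-score cells were slightly shallower than the rest. They had a median of 19626 UMIs and 4374 genes, against 22066 UMIs and 4464 genes in the other cells. The median share of UMIs from ribosomal protein genes was 28.9% against 33.4%, and that from mitochondrial genes 2.85% against 2.57%. A UMI of *Mki67* or *Top2a*, genes of dividing cells, was found in 338 high-score cells (34.0%) and 4137 other cells (46.2%). Above the 95th percentile of depth lay 22 high-score cells (2.21%) and 476 others (5.32%). The part that depth and cell division play in the differences below was not tested.

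*Thbs1* (ENSMUSG00000040152, chromosome 2 from 118111876 to 118127133) was found at 0 to 331 UMIs per high-score cell with a median of 7, and at 0 to 32 with a median of 0 in the other cells. Summed over cells and scaled to 1000000 UMIs (CPM), its level was 817 CPM (95% exact Poisson interval 804 to 830) and 68.6 CPM (67.5 to 69.7). The difference is given as the log2 ratio of CPM in high-score over other cells, which was 3.57 (3.54 to 3.61, exact conditional binomial interval) for *Thbs1*. These intervals cover counting error in this library only. There is 1 library per passage and cells are not replicates of it, so no test was made, and the score genes chose the cells, so their values are a description.

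*Postn* (ENSMUSG00000027750, chromosome 3 from 54361109 to 54391037) ranged from 0 to 53 UMIs per high-score cell with a median of 5, and from 0 to 23 with a median of 0 in the others. Its level was 372 CPM (364 to 381) against 52.3 CPM (51.3 to 53.3), a log2 ratio of 2.83. *Nrep* (ENSMUSG00000042834, chromosome 18 from 33437019 to 33464029), which encodes a small intracellular protein first described in neurons, was at 189 CPM (183 to 195) against 28.9 CPM (28.1 to 29.6). *Col6a3* (ENSMUSG00000048126, chromosome 1 from 90765923 to 90843971), a chain of beaded collagen VI, was at 67.3 CPM (63.7 to 71.0) against 8.40 CPM (8.01 to 8.81). *Adamts15* (ENSMUSG00000033453, chromosome 9 from 30899155 to 30922452), a secreted protease of proteoglycans, was at 59.4 CPM (56.0 to 62.8) against 16.9 CPM (16.4 to 17.5). All of these are protein-coding genes of the GENCODE M21 annotation of GRCm38, and for each the range of UMIs per cell overlapped between the high-score and the other cells.

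A UMI was found in 71.4% of high-score cells for *Postn*, 83.4% for *Thbs1*, 61.0% for *Nrep*, 44.8% for *Adamts15* and 39.9% for *Col6a3*. The other cells had 38.3%, 48.5%, 28.9%, 22.6% and 11.5%. After each cell was thinned to 9500 UMIs, which left out 89 high-score and 841 other cells, the shares were 65.2% against 26.4% for *Postn* and 77.7% against 33.5% for *Thbs1*. All 5 genes had a UMI in 120 high-score cells (12.1%) and 97 other cells (1.08%), while 141 high-score cells (14.2%) had a UMI of only 1 of them.

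The 5 genes went together only loosely from cell to cell. Spearman's rho between their shares of UMIs over the 9950 kept cells, which all come from 1 library, ran from 0.01 for *Thbs1* and *Adamts15* to 0.29 for *Postn* and *Adamts15*, and was 0.11 for *Postn* and *Thbs1*. When each gene was left out of the score in turn and the top 10% taken by the other 4, the gene left out was still higher in the cells taken. *Col6a3* then had a log2 ratio of 2.45, *Nrep* of 1.63, *Postn* of 1.34 (179.5 against 71.1 CPM), *Adamts15* of 1.30 and *Thbs1* of 1.04 (255 against 124 CPM). Of the 995 cells, 941 stayed when *Col6a3* was left out, but 729 without *Postn* and 624 without *Thbs1*.

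High-score cells also lay near each other by the rest of their RNA. Among the 20 nearest neighbours of each cell in 15 dimensions computed from 2000 variable genes without the score genes, a mean of 31.9% were high-score cells for high-score cells and 4.55% for others. More than 50% of the neighbours were high-score cells for 218 of the 995 (21.9%), and none were for 78 (7.84%).

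Genes outside the score were compared next. Of 9339 genes with a UMI in at least 10% of high-score or other cells, 609 (6.52%) had a log2 ratio of 0.5 or more and 96 (1.03%) of -0.5 or less, counts that hold the 5 score genes. A gene past either value is called higher or lower below. A gene found in 10% of the high-score cells alone also counts as measured, which favours genes that are higher there. The median measured gene had a log2 ratio of 0.11, and the 81 ribosomal protein genes had a median of -0.21. With the library size taken without mitochondrial and ribosomal protein genes, 414 genes were higher and 208 lower (66.6% higher, against 86.4%), and with ratios centred on the median gene 390 were higher and 243 lower (61.6% higher). The lists below are given beside this median of 0.11.

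**Figure D1:**
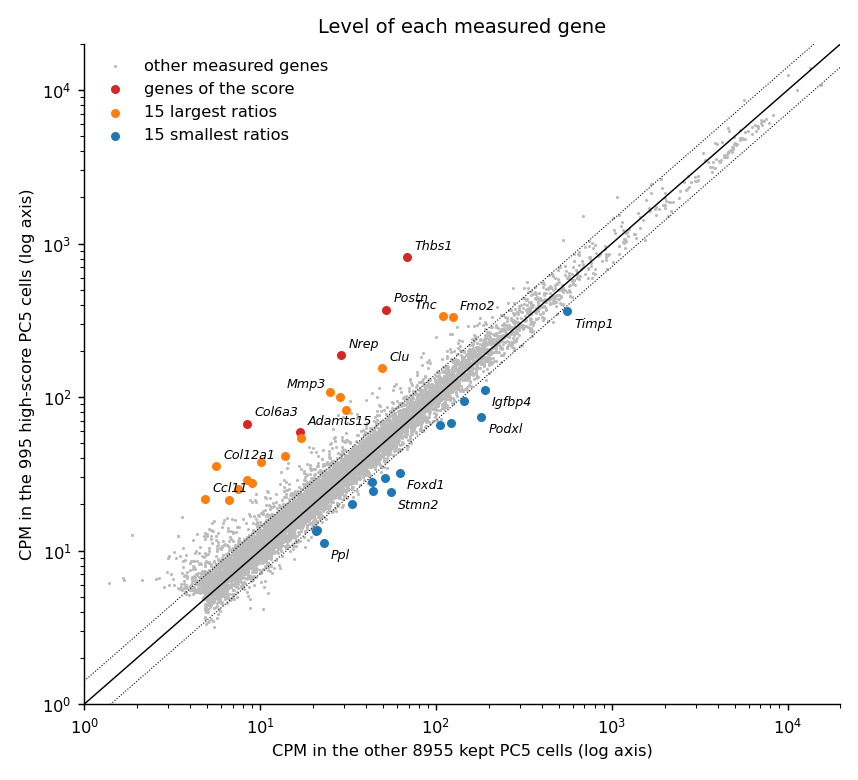
Level of each of the 9339 measured genes in the other 8955 PC5 cells (x axis, CPM, log axis) and in the 995 high-score cells (y axis, CPM, log axis). The solid line marks equal levels and the dotted lines log2 ratios of 0.5 and -0.5. The 5 score genes (red) and the 15 genes with the largest ratios among those with at least 20 CPM (orange) lie above the lines, led by *Thbs1* at 817 against 68.6 CPM, and the 15 with the smallest ratios (blue) lie below.

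The genes named here and in the next paragraphs come from the 15 with the largest and the 15 with the smallest ratios among genes with at least 20 CPM where they are higher, outside the score. Genes under 20 CPM also had large ratios, such as *Inmt*, a methyltransferase, at 12.6 against 1.87 CPM (2.76), and *Mmp10*, a protease close to *Mmp3*, at 16.7 against 3.61 CPM (2.21), which were picked after their values were seen. At these levels *Inmt* and *Mmp10* could pass the 10% filter only through the high-score cells, which favours large ratios. *Col12a1*, a collagen that coats fibrils of collagen I, was at 35.7 CPM (33.1 to 38.4) in high-score cells and 5.61 CPM (5.29 to 5.95) in the others, a log2 ratio of 2.67 (2.53 to 2.81), with a UMI in 32.0% and 9.29% of cells. *Ccl11*, the eosinophil chemokine, followed at 2.15, but a UMI was found in only 10.1% of high-score cells, of which the richest held 57. In the other cells the share was 3.99%, so *Ccl11*, like *Col12a1*, was measured only through the high-score cells. *Mmp3*, a secreted protease of matrix proteins, was at 109 CPM against 25.0 CPM, a log2 ratio of 2.12. *Stra6*, the cell surface receptor for retinol carried in blood, had a log2 ratio of 1.90 (37.8 against 10.1 CPM). *Tnc*, or tenascin C, a matricellular glycoprotein of wounds, was at 339 CPM (331 to 347) against 110 CPM (108 to 111), with a UMI in 78.1% and 58.8% of cells.

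Others of the 15 were *Cdh11* (1.77 on the log2 scale), a cadherin of mesenchymal cells, *Acpp* (1.75), an acid phosphatase, *Rgs16* (1.68), which dampens G protein signals, *Myl9* (1.65), a light chain of contractile myosin, *Clu* (1.64), a secreted chaperone, *Ptn* (1.63), a heparin-binding growth factor, *Ntn4* (1.58), a netrin of basement membranes, *Il33* (1.43), a nuclear cytokine, and *Fmo2* (1.41), an oxidizing enzyme. Thinning all cells to 9500 UMIs left these 15 between 1.35 for *Il33* and 2.62 for *Col12a1*. None of the 15 marked every high-score cell, since the share of cells with a UMI ran from 10.1% for *Ccl11* to 78.1% for *Tnc*.

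Among genes lower in the high-score cells with at least 20 CPM in the others, the smallest ratio was that of *Podxl*, a sialomucin of the cell surface, at 74.8 CPM (71.0 to 78.7) against 181 CPM (179 to 183), a log2 ratio of -1.28. *Stmn2*, which loosens microtubules and is best known from neurons, was at 23.9 against 55.5 CPM (-1.21). It was the only measured gene of 6 neuron markers, and the other 5, among them *Rbfox3* and *Syt1* at 0 UMIs in high-score cells, together had under 1 CPM. *Ppl*, a plakin of cell junctions, had a log2 ratio of -1.03, and *Foxd1*, a transcription factor of stromal progenitors, of -0.97 (31.9 against 62.4 CPM). *Igfbp4*, which binds insulin-like growth factors, was at 112 against 190 CPM (-0.76), and *Timp1*, an inhibitor of matrix metalloproteases, at 362 against 559 CPM (-0.62).

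The other genes with the smallest ratios were *Sbsn* (-0.85), *Tmem238* (-0.84), *Slc29a1* (-0.79), a nucleoside transporter, *Sema3c* (-0.73), a secreted guidance cue, *Ube2c* (-0.66), which serves the degradation of cyclins in mitosis, *Ctnnal1* (-0.63), *Eva1c* (-0.63), *Slc5a3* (-0.63), a carrier of inositol, and *Nsmce1* (-0.62), of a complex for DNA repair. Some of these calls ended under other settings. With the top 20% of cells *Ctnnal1* had -0.49, and *Slc5a3* and *Nsmce1* both -0.45. Within deciles of depth *Ube2c* had -0.44, and with cells chosen and measured after thinning *Nsmce1* had -0.36. *Podxl* still had a UMI in 56.1% of high-score cells against 79.9% of the others, and after thinning in 42.2% against 66.0%.

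Among structural genes, most fibrillar collagens were higher. Of 9 measured fibrillar and associated collagens 8 were higher and 0 lower, with a median log2 ratio of 0.90 against 0.11 for all measured genes. These 8 hold *Col12a1*, which was measured only through the high-score cells. *Col1a1* was at 1052 against 529 CPM (0.99), *Col3a1* at 2002 against 1075 CPM (0.90) and *Col5a3* at 62.3 against 26.0 CPM (1.26), while *Col16a1* had 35.3 against 30.4 CPM (0.22). Of 8 network and beaded collagens 4 were higher, with a median of 0.66, led by *Col15a1* (1.61, but 9.81 against 3.22 CPM) and *Col8a1* (1.06). *Col15a1* passed the 10% filter only through the high-score cells. This median was 0.42 with *Nrep* or *Postn* out of the score and 0.43 with the top 20% of cells, under the limit for a call. With the top 20% only 7 genes of the list were measured, as also with thinned cells (median 0.52). Of 8 small leucine-rich proteoglycan genes 2 were measured, *Dcn* (0.90), which was higher, and *Bgn* (0.48). The basement membrane chains *Col4a1* and *Col4a2* lay just under the limit, at 0.48 and 0.50.

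Of 15 enzymes that modify and cross-link collagen 6 were higher and 0 lower, with a median of 0.47. They were the prolyl hydroxylase *P4ha2* (0.97), the lysyl hydroxylase *Plod1* (0.71), *P3h1* (0.56) and the cross-linking oxidases *Loxl2* (0.56), *Loxl3* (0.54) and *Lox* (0.51). Of 13 elastic fibre genes 7 were higher, with a median of 0.50. These held the fibrillins *Fbn2* (1.29) and *Fbn1* (0.50), the fibulins *Fbln5* (1.08) and *Fbln1* (0.54), *Mfap2* (1.18) and the latent TGF-beta binding genes *Ltbp2* (1.44) and *Ltbp1* (0.73), while *Fbln2* was at 658 against 635 CPM. *Eln*, which encodes elastin itself, had 3 UMIs in all high-score cells.

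Of 11 matricellular and adhesive genes other than those of the score, 6 were higher, with a median of 0.53. Besides *Tnc* these were *Cyr61* (1.29), *Thbs2* (1.19), *Wisp1* (0.88), *Ctgf* (0.79) and *Sparc* (0.53). *Spp1*, or osteopontin, was at 4503 against 3852 CPM (0.23), and *Vcan*, a large proteoglycan, at 255 against 256 CPM. Of 18 proteases and inhibitors of the matrix 8 were higher and 1, *Timp1*, was lower, with a median of 0.46. Besides *Mmp3* these held the plasminogen activator *Plau* (1.22), *Adamts2* (1.14), which trims procollagen, and *Adamts12* (0.91), whereas *Timp2*, whose product inhibits metalloproteases, was at 1041 against 1207 CPM (-0.21).

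Of 16 matrix receptors 5 were higher, with a median of 0.36, namely *Itga8* (1.19), *Sdc2* (0.88), *Itga1* (0.83), *Itga5* (0.63) and *Cd44* (0.62). *Itgb1*, the shared chain of many integrins, was at 1043 against 744 CPM (0.49). Of 14 genes of the secretory pathway 3 were higher, with a median of 0.31, and they were *Creb3l1* (1.13), a transcription factor of collagen secretion, *Kdelr3* (0.80) and the coat gene *Sec24d* (0.55). Of 14 chaperones of the endoplasmic reticulum 0 were higher and 0 lower, with a median of 0.23, and *Hspa5* had the largest ratio at 0.48.

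**Figure D2:**
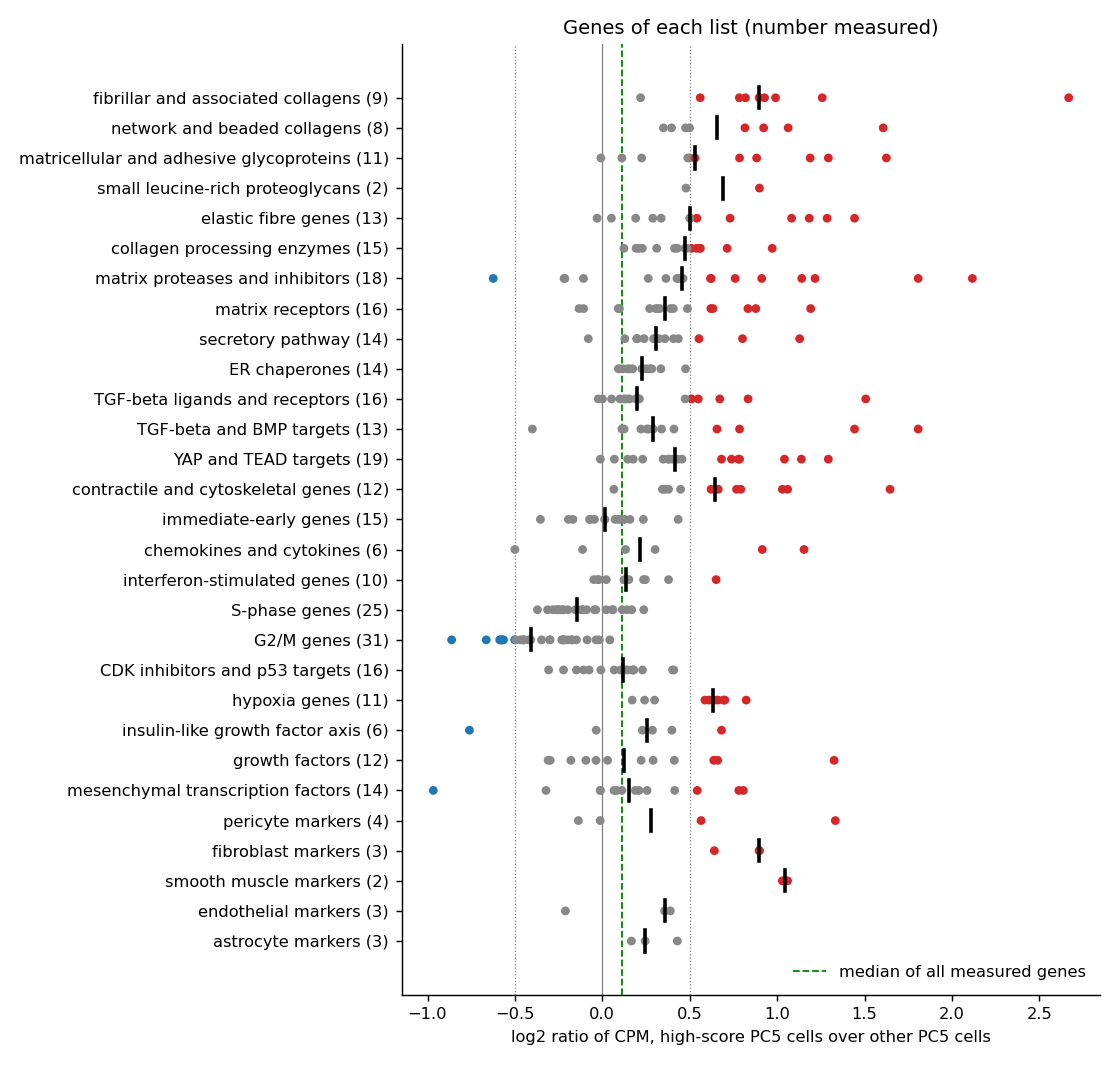
Log2 ratio of CPM in high-score over other PC5 cells (x axis) for each measured gene of each list (y axis, with the number measured). Points are genes, red if higher and blue if lower by 0.5 (dotted lines), black bars are list medians, and the dashed green line is the median of all measured genes, 0.11. Collagen lists stand to the right, with 8 of 9 fibrillar collagens red, and the G2/M list to the left with 8 of 31 genes blue.

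Some genes of signals that act on the matrix were higher. Of 16 TGF-beta family ligands, receptors and mediators 5 were higher and 0 lower, with a median of 0.20. They were led by *Bmp4* (1.51, 10.4 against 3.64 CPM) and *Inhba* (0.83), which encodes the activin A chain. *Bmp4* passed the 10% filter only through the high-score cells. *Tgfb1* was at 30.6 against 27.5 CPM (0.16) and *Tgfbr2* at 268 in both. When cells were chosen on one part of their UMIs and measured on the other, the median of this list was 0.08, under that of all genes. Only 11 of its genes were then measured, so the choice of cells and the genes changed together. With thinned cells 12 were measured, with a median of 0.24. Of 13 target genes of TGF-beta or BMP 4 were higher and 0 lower, with a median of 0.29. They included *Pmepa1* (0.66) and, also on lists above, *Ltbp2* and *Ctgf*, and *Id1* had -0.40. Of 19 target genes of YAP and TEAD 7 were higher and 0 lower, with a median of 0.42, among them *Cyr61*, *F3* (1.14), *Ankrd1* (1.04), *Amotl2* (0.78) and *Crim1* (0.74). When *Thbs1* was left out of the score the median of this list was 0.17.

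Of 12 contractile and cytoskeletal genes 7 were higher, with a median of 0.64. *Acta2*, smooth muscle actin, was at 117 against 57.5 CPM (1.03), *Tagln* at 417 against 200.1 CPM (1.06), *Vcl* at 235 against 136 CPM (0.79) and *Actn1* at 563 against 330.3 CPM (0.77). Without *Thbs1* in the score the median of the list fell to 0.31. Of the 15 immediate-early genes 0 were higher or lower (median 0.02), with *Fos* at 49.0 against 56.1 CPM.

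Most hypoxia genes were higher. Of 11 hypoxia genes 8 were higher and 0 lower, with a median of 0.63. *Vegfa*, the main endothelial growth factor, was at 290.1 against 164 CPM (0.82), *Adm*, or adrenomedullin, at 512 against 317 CPM (0.69), and *Egln3*, a prolyl hydroxylase that senses oxygen, at 47.6 against 29.3 CPM (0.70). *Ldha* and *Pgk1*, of glycolysis, had 0.17 and 0.30, and *Car9* was not measured, with 11 UMIs in high-score cells. With *Postn* out of the score the median of the list was 0.45, under the limit for a call. The share of hypoxia genes called higher, 8 of 11, stands beside 6.52% of all measured genes.

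Some genes of mitosis were lower. Of 31 G2/M genes 8 were lower and 0 higher, with a median of -0.41, and 30 lay below 0, all but *Anln*. *Cdc20* had a log2 ratio of -0.86, *Ube2c* of -0.66, *Hmmr* of -0.59 and *Birc5* of -0.58, while *Top2a* was at 83.4 against 96.9 CPM (-0.22). When the top 10% was taken within each decile of depth the median was -0.13. Of 25 S-phase genes 0 were higher or lower, with a median of -0.14 that became 0.04 within deciles of depth. Of 16 CDK inhibitors and p53 target genes 0 were higher or lower (median 0.12), and *Cdkn2a* and *Cdkn2b*, inhibitors of G1 progression, had 0.41 and 0.40.

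Among secreted signals, *Il6* (1.15) and *Cxcl12* (0.92) were the 2 higher of 6 measured genes of a chemokine and cytokine list that does not hold *Ccl11* and *Il33*, which were higher as given above, while *Ccl2* was at 219.6 against 310.5 CPM (-0.50). Of 12 measured genes of a growth factor list that does not hold *Ptn* and *Vegfa*, both higher as given above, 3 were higher, namely *Angpt1* (1.33), a ligand of endothelial Tie2, *Vegfc* (0.66) and *Hbegf* (0.64). Without *Thbs1* in the score the median of this list went from 0.13 to -0.18. Of 6 genes of the insulin-like growth factor axis *Igfbp3* was higher (0.68) and *Igfbp4* lower. Of 10 interferon-stimulated genes 1, *Ifit2* (0.65), was higher, a share near the 6.52% of all measured genes. Of 14 mesenchymal transcription factors *Twist2* (0.81), *Prrx1* (0.78) and *Snai2* (0.54) were higher, *Foxd1* was lower, and *Sox9* had -0.32.

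The label of these cells as PCs rests on few markers in this library. Of 12 pericyte markers 4 were measured, and *Pdgfrb*, the receptor of platelet-derived growth factor, was at 63.2 against 42.7 CPM (0.57), *Ndufa4l2* at 74.7 against 29.6 CPM (1.33), *Notch3* at 10.2 against 11.2 CPM and *Cspg4* at 5.51 against 5.55 CPM. *Rgs5* had 34 UMIs, *Vtn* 2 and *Kcnj8* 1 in the high-score cells, and *Abcc9*, *Higd1b* and *Atp13a5* had 0, which allows up to 0.150 CPM each. *Anpep* and *Mcam*, also on the list, were not measured, with a UMI in under 10% of both groups.

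All 3 measured fibroblast markers were higher, *Pdgfra* at 131.5 against 84.4 CPM (0.64), *Dcn* at 88.7 against 47.6 CPM (0.90) and *Col3a1*, and *Lum* had 7.76 against 3.16 CPM. Their summed level was 2230 against 1210 CPM. With *Postn* out of the score the median of the measured markers went from 0.90 to 0.44, under the limit for a call. Both measured smooth muscle markers, *Acta2* and *Tagln*, were higher, and the others, *Cnn1* and *Myh11*, had 2.85 and 1.35 CPM against 0.52 and 0.09 CPM. Of 8 endothelial markers 3 were measured with 0 higher or lower. *Cdh5* was at 147 against 170 CPM (-0.21), *Flt1* at 22.4 against 17.1 CPM (0.39) and *Kdr* had a log2 ratio of 0.36, while *Pecam1* had under 1 CPM in both and *Cldn5* 1 UMI in high-score cells. Of 6 astrocyte markers 3 were measured with 0 higher or lower, led by *Slc4a4* at 187 against 139 CPM, and *Gfap* and *Aqp4* had 0 UMIs in high-score cells. The 7 microglia and immune markers together had 0.95 CPM in high-score cells, with 5 at 0 UMIs and *Csf1r* the most abundant. The 7 oligodendrocyte markers had 0.75 CPM, with 6 at 0, and the 4 epithelial markers 0.25 CPM, with 2 at 0. The part of fibroblasts or smooth muscle cells carried over from the isolation was not tested.

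Several lists were graded over the upper deciles of the score. From the fifth to the highest decile of kept cells by score, the summed level of fibrillar collagens rose at each of 5 steps, from 3559 to 5030 CPM in the ninth decile and 6318 CPM in the high-score cells, which are the highest decile. Network collagens, contractile genes, hypoxia genes and YAP targets also rose at all 5 steps, and G2/M genes fell at all 5, from 1383 to 1004 CPM. Below the fifth decile G2/M genes did not keep this order, with 1186 CPM in the lowest decile and 1486 CPM in the third. *Col12a1* went from 3.56 CPM in the fifth decile to 15.4 and 35.7 CPM in the last ones, and *Podxl* from 178 to 116 and 74.8 CPM. *Acta2* was at 59.9 CPM in the fifth, 60.9 in the sixth, 69.1 in the seventh, 59.5 in the eighth, 65.4 in the ninth and 117 in the highest decile. The deciles below the fifth hold cells with few or no score UMIs, and those with a score of 0 are in file order. Median depth was 18307 and 16519 UMIs in the lowest deciles, 26399 in the third, 22458 in the fifth, 20773 in the ninth and 19626 in the highest, so it fell along with the G2/M genes at the top of the score, and its part in that fall was not tested.

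**Figure D3:**
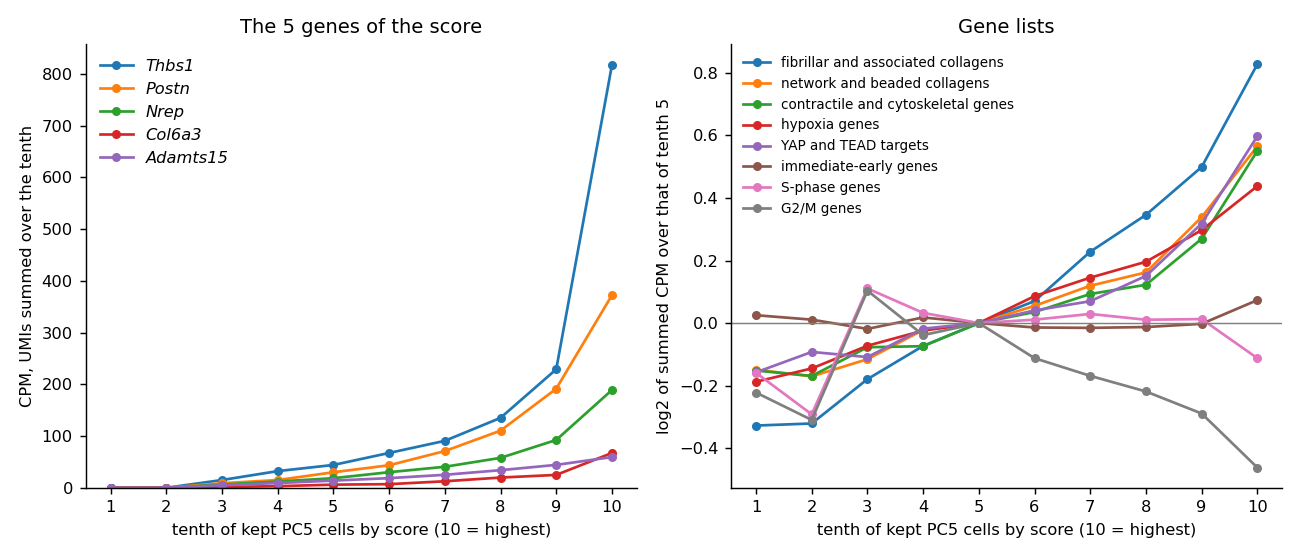
Summed CPM of the 5 score genes (left) and log2 of the summed CPM of gene lists over that of the fifth decile (right) in deciles of the 9950 kept PC5 cells ordered by score (x axis, 10 is the highest). Each point sums 995 cells of 1 library. Collagens rise over the upper deciles, from 3559 CPM in the fifth to 6318 CPM in the highest, G2/M genes fall from 1383 to 1004 CPM, and immediate-early genes stay near 0.

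High-score cells were split by the gene that gave most of their score UMIs. *Thbs1* led in 476 (47.8%), where a median of 89.5% of score UMIs were its own, and *Postn* led in 365 (36.7%), with a median of 64.9%. *Nrep* led in 123 (12.4%), *Col6a3* in 23 and *Adamts15* in 8, and the 20 cells with a tie were given to the gene named first in the score. Cells led by *Thbs1* had a median of 20678 UMIs and those led by *Postn* 18967. These groups were split by the measured values too, so the comparison between them is a description. Any cell has a leading gene, so the split does not show separate kinds of cell. Over all kept cells Spearman's rho of *Postn* and *Thbs1* was 0.11.

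Of 9449 genes measured in either, 442 (4.68%) were higher in *Thbs1*-led cells and 1026 (10.9%) in *Postn*-led cells by a log2 ratio of 0.5, with a median over all genes of -0.09 for *Thbs1*-led over *Postn*-led. Centred on the median gene, the counts were closer, at 619 and 702. *Alkal1*, a ligand of receptor tyrosine kinases, was at 25.3 CPM in *Thbs1*-led and 2.73 CPM in *Postn*-led cells, against 5.14 CPM in the cells outside the high-score set, a log2 ratio of 3.21 (2.54 to 3.97). *Ntn4* (2.48), *Mgp*, an inhibitor of calcification (2.36, 544 against 106 CPM), *Inhba* (1.86, 210.4 against 57.8 CPM), *Serpinb2* (1.80) and *Acta2* (1.71, 171 against 52.2 CPM) were also higher in *Thbs1*-led cells. *Acta2* was at 57.5 CPM in the cells outside the high-score set, close to its level in *Postn*-led cells. *Mgp* was at 268.5 CPM outside the set, above its level in *Postn*-led cells. In *Nrep*-led cells *Serpinb2* was at 224 CPM and *Ntn4* at 54.0 CPM, close to the 231 and 60.2 CPM of *Thbs1*-led cells. *Alkal1*, *Mgp*, *Inhba* and *Acta2* were lower there, at 0.425, 75.7, 88.8 and 90.5 CPM.

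*Postn*-led cells had the higher level of *Ptn*, at 61.9 against 7.15 CPM, a log2 ratio of -3.12 (-3.49 to -2.75) in *Thbs1*-led over *Postn*-led cells. *Bmp4* (-2.59, 21.3 against 3.53 CPM), the imprinted noncoding RNA *H19* (-2.38), *Lifr*, a receptor chain for leukemia inhibitory factor (-2.27), *Islr* (-2.15), *Fbn2* (-1.86) and *Gas1* (-1.80) followed. *Bmp4* and *H19* had a UMI in 6.09% and 9.66% of *Thbs1*-led cells, so they passed the 10% filter only through *Postn*-led cells. In *Thbs1*-led cells *Ptn*, *Bmp4* and *Islr* were at 7.15, 3.53 and 6.86 CPM, near the 8.95, 3.64 and 6.89 CPM of cells outside the set. In *Nrep*-led cells *Ptn* was at 12.75 CPM and *Bmp4* at 6.38 CPM, also above the cells outside the set but far under *Postn*-led cells. The ratios of *Ptn* and *Bmp4* in the whole high-score set were thus carried mainly by *Postn*-led cells.

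**Figure D4:**
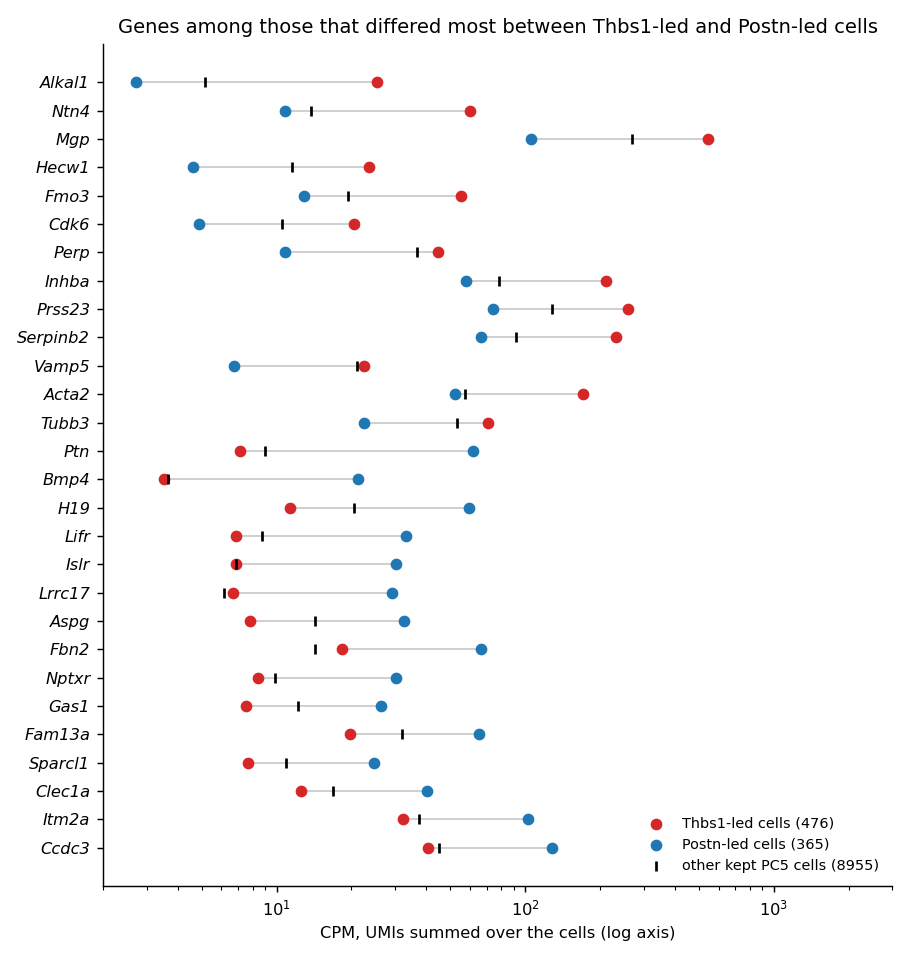
Level (x axis, CPM, log axis) of genes among those that differed most (y axis) in the 476 *Thbs1*-led cells (red), the 365 *Postn*-led cells (blue) and the other 8955 kept PC5 cells (black ticks). *Alkal1* stands at 25.3, 2.73 and 5.14 CPM and *Ptn* at 7.15, 61.9 and 8.95 CPM. The ticks of *Bmp4* and *Islr* lie at the red points and those of *Acta2* near the blue point.

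Some gene lists differed between these groups and others did not. Of 11 matricellular and adhesive genes 2 were higher and 2 lower in *Thbs1*-led cells (median 0.04). Of 17 matrix receptors 3 were higher and 3 lower (median 0.01), and of 14 chaperones of the endoplasmic reticulum 0 and 0 (median -0.01). Fibrillar collagens had a median log2 ratio of -0.56 in *Thbs1*-led over *Postn*-led cells with 5 of 9 higher in the latter, and summed to 5055 and 7784 CPM against 3707 CPM in cells outside the set. Fibroblast markers had -1.14, summing to 1467 and 3250 CPM, while smooth muscle markers had 1.65, summing to 788 and 256 CPM against 258 CPM outside the set. Of 14 contractile genes measured here 6 were higher in *Thbs1*-led cells and 0 in *Postn*-led cells (median 0.45). In the whole high-score set only 12 contractile genes were measured, so some passed the filter only within these smaller groups. Such a filter can favour the group where a gene is higher. Its part in the contractile count and median was not tested. Of 19 YAP and TEAD targets 5 were higher and 2 lower in *Thbs1*-led cells (median 0.27), and of 11 hypoxia genes 0 and 4 (median -0.38). These counts stand beside 4.68% of all genes measured here higher and 10.9% lower, with a median of -0.09. The share of YAP and TEAD targets that were lower was near that of all genes. Of 12 growth factors 6 were higher in *Thbs1*-led and 2 in *Postn*-led cells (median 0.59), with *Angpt1* at -1.82 and *Hbegf* at 1.12. For G2/M genes the median was -0.45, but 0.06 among the 312 *Thbs1*-led and 228 *Postn*-led cells with no *Mki67* or *Top2a* UMI. *Top2a* is itself a gene of this list, so that choice takes out cells by values of the list. The genes measured were also chosen anew in these cells, so cells and genes changed together.

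High-score cells were set beside other extremes of the same library that were built with other genes and hold 995 cells each, which is 10% of the kept cells. They shared 207 cells (20.8% of each) with the top 10% by contractile genes, 131 (13.2%) with that by *Cyp26b1*, *Fbn2* and *Hgf*, 94 (9.45%) with that by chemokine genes and 79 (7.94%) with that by G2/M genes. The share with the contractile set was thus the furthest above 10%, and those with the chemokine and G2/M sets lay under it. The contractile cells had 429 CPM of *Thbs1* (log2 ratio of 2.05 over the rest of their library) but 94.5 CPM of *Postn* (0.25), and 664 CPM of *Col1a1* (0.23), where the high-score cells had 817, 372 and 1052 CPM. They also had log2 ratios of 1.27 for *Tnc*, 0.93 for *Col12a1* and -0.51 for *Podxl*, in the same direction as in the high-score cells.

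In PC20 the same score rested on fewer genes. The 475 cells at the top by the same rule began at 0.61 score UMIs per 10000, and 2831 of the 4749 kept cells (59.6%) had a score of 0. Their score came nearly all from *Col6a3*, at 59.0 CPM against 9.22 CPM in the other 4274 cells, and *Thbs1*, at 49.5 against 2.67 CPM, while *Nrep* had 0.31 CPM, *Adamts15* 0.24 CPM and *Postn* 0.06 CPM, the last being 1 UMI. With a median of 3 score UMIs a cell, the choice of PC20 cells rests on few molecules. Of 10144 measured genes 859 (8.47%) were higher and 161 (1.59%) lower in these cells, with a median log2 ratio of 0.04 over all of them.

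Genes were set side by side for the 8792 measured in both libraries outside the score. Of 428 higher in the PC5 high-score cells, 121 (28.3%) were higher and 3 (0.701%) lower in the PC20 ones. Of 79 lower in PC5, 5 (6.33%) were lower and 14 (17.7%) higher in PC20. These shares stand beside 8.47% higher and 1.59% lower among all 10144 genes measured in PC20, a wider set. Spearman's rho of the log2 ratios across these genes, which are not independent replicates, was 0.38. Fibrillar collagens had 6 of 7 measured genes higher in PC20, with *Col1a1* at 25.8 against 4.20 CPM (2.62), and G2/M genes 7 of 33 lower (median -0.38). The hypoxia list had 1 of 12 genes higher in PC20 (median 0.15), a share close to the 8.47% of all measured genes. *Vegfa* was at 233 against 203 CPM (0.20). *Tnc*, with a log2 ratio of 1.63 in PC5, was at 102 against 97.1 CPM (0.07) in PC20, and *Podxl* had -0.05.

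**Figure D5:**
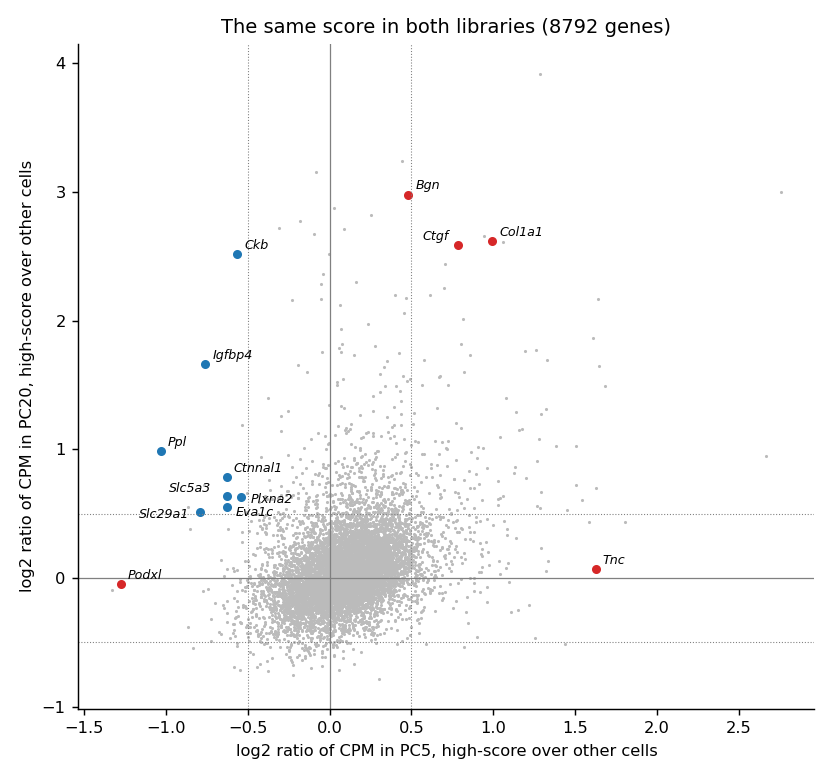
Log2 ratio of high-score over other cells in PC5 (x axis) and PC20 (y axis) for the 8792 genes measured in both outside the score, with dotted lines at 0.5 and -0.5. Named in red are matrix genes and *Podxl*, and in blue the genes lower in PC5 but higher in PC20 with at least 20 CPM in each. *Col1a1* and *Ctgf* are high on both axes, at 0.99 and 2.62 and at 0.79 and 2.59, while *Tnc* and *Podxl* lie near the middle of the PC20 axis.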

How the data were processed

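Droplet 3' RNA libraries (10x v3.1) of cultured PCs, 1 per passage, were analysed. The authors deposited raw UMI counts per gene and barcode, made per the submitters' processing notes with Cell Ranger 5.0 on mm10. Cells were kept at more than 1000 genes and under 20% mitochondrial UMIs. No doublet caller was run and no doublets were removed here. Counts were summed over cells, scaled to CPM and compared as log2 ratios, with exact Poisson and conditional binomial 95% intervals. A gene was measured with a UMI in at least 10% of either group, and called at a log2 ratio of 0.5. With 1 library per passage no test was made. Shares of cells were repeated after thinning to 9500 UMIs. The scripts were tested on simulated data. Named genes were the 5 score genes, the 15 largest and 15 smallest ratios of genes that reached 20 CPM, and were detected in 10% of cells, in the group where they were higher (without pseudogenes and unnamed gene models), and members of the gene lists. Some genes that this rule gives are not reported here. The members and lists were chosen with earlier results of these data known. Of barcodes, 20 were shared by the libraries, none of them a PC5 high-score cell. Positions were from GENCODE M21 and promoters from RefSeq. Alternatives varied the share of cells taken, the score, the filters, the scaling and the threshold. Python 3.11.15, numpy 2.4.6, scipy 1.17.1, pandas 2.3.3, scikit-learn 1.9.0 and matplotlib 3.10.9 were used.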

Additional observations from a re-analysis of the deposited data

Results flagged for a closer look

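Among genes with at least 20 CPM in each library where they are higher, 8 were lower by 0.5 on the log2 scale in the PC5 high-score cells and higher by as much in the PC20 ones. Without that minimum there were 14, of 79 genes lower in PC5 and measured in both (17.7%). This stands beside 8.47% of all measured genes higher in PC20. The difference between the passages was not tested, and passage and isolation cannot be told apart. *Ckb*, a creatine kinase, had -0.57 in PC5 (72.0 against 107 CPM) and 2.52 in PC20 (80.1 against 14.0 CPM). *Igfbp4* had -0.76 in PC5 and 1.66 in PC20 (109.6 against 34.6 CPM). *Ppl* had -1.03 and 0.99, *Ctnnal1* -0.63 and 0.79, and *Slc5a3* -0.63 and 0.64. *Plxna2*, a semaphorin receptor, had -0.54 and 0.63, *Eva1c* -0.63 and 0.55, and *Slc29a1* -0.79 and 0.51.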

How the results depend on the processing

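Against 609 genes higher in the high-score cells, 940 were higher with the top 5% of cells, 1453 with genes in at least 1% of cells, 360 with genes in at least 25%, 126 past a log2 ratio of 1, and 390 centred on the median gene, a setting chosen after seeing the data. Against 96 lower, these gave 192, 371, 55, 6 and 243, and 34 were lower with the top 20% of cells, 168 with the 5 genes weighted equally, 63 within deciles of depth, 208 without mitochondrial and ribosomal UMIs in the total, and 156 with *Thbs1* out of the score. The score with equal weights shared 707 of the 995 cells. The G2/M median of *Thbs1*-led over *Postn*-led cells reversed from -0.453 to 0.062 when cells with a UMI of *Mki67* or *Top2a* were left out, also chosen after seeing the data. That setting drops cells by a gene of the list itself, and the genes measured changed with the cells. The causes were not tested. Of 490 values of named genes under alternatives 272 stayed within the 95% counting interval of the main value, 218 moved out of it and 0 changed sign. With a pseudocount of 1 added to the mean UMIs per 10000, which shrinks genes of low level by construction, 12 of the 35 named genes stayed past 0.5, and *Col12a1* went from 2.67 to 0.40, *Ccl11* from 2.15 to 0.28, *Stra6* from 1.90 to 0.32 and *Stmn2* from -1.21 to -0.32. The medians of immediate-early and interferon-stimulated genes, 0.02 and 0.14, became -0.11 and -0.01 with *Thbs1* out of the score. With few UMIs per gene in a cell, shares of cells depend on depth, and the spread between cultures is unknown.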

Other observations

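Other gene families are given for the PC5 high-score cells. They were chosen after their values were seen, so their counts are a description, beside 6.52% of all measured genes higher, 1.03% lower and a median log2 ratio of 0.11. Of 11 measured genes of the retinoid pathway 4 were higher and 1 lower. *Stra6* was joined by *Dhrs3* (1.29), which turns retinal back to retinol, *Aldh1a2* (0.88, 88.1 against 47.8 CPM), which makes retinoic acid, and the receptor *Rarb* (0.86), while *Rdh10*, which makes retinal, was lower (-0.62). Of 13 guidance cue genes 4 were higher, among them the netrin receptor *Unc5c* (1.32), and *Sema3c* and *Plxna2* were lower. *Plxnd1*, also among the higher ones (0.655), was at 6.71 against 4.26 CPM, and *Dhrs3* at 9.31 against 3.81 CPM. At these levels *Dhrs3* and *Plxnd1* could pass the filter for measured genes only through the high-score cells. Such a filter favours genes that are higher there, and its part in the retinoid and guidance counts was not tested. Of 9 basement membrane genes 2 were higher, with the laminin chain *Lama4* at 33.8 against 17.0 CPM (0.99), and *Nid1* was at 2123 against 1664 CPM (0.35). Of 81 ribosomal protein genes 80 lay below 0 and 0 were called.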
